A study of Mus musculus with 8 samples.

Results

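The genes of the synaptic vesicle fusion machinery were examined in chromatin accessibility data (ATAC-seq, which marks open DNA by where the Tn5 transposase inserts) from mouse cerebral cortex. A gene was taken when its GENCODE symbol began with Syt, Stx, Stxbp or Vamp followed by a digit, or when it was Syn1, Syn2, Syn3 or Snap25. This gave 50 of 21938 protein-coding genes, and all 50 passed the minimum of covered DNA described below, as did 17035 genes in all. The study asked how chromatin changes when blood flow to the brain is chronically reduced. Male C57BL/6 mice with bilateral carotid artery stenosis (BCAS, n = 4) had a microcoil of 0.16 mm inner diameter placed around the right common carotid artery and one of 0.18 mm around the left at 11 weeks of age, and sham-operated male C57BL/6 mice (sham, n = 4) had the surgery without coils. Tissue was taken 3 weeks later, at 14 weeks, and each library came from 1 mouse. The labels name the right cerebral cortex, while a quality table of the study lists cortical tissue of a whole brain from which cerebellum and olfactory bulb had been removed. In such bulk tissue, fewer cells of a type and less open chromatin per cell cannot be told apart.

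Synaptic vesicles release transmitter when SNARE proteins on the vesicle (VAMP2) and on the plasma membrane (a syntaxin and SNAP-25) zip into a bundle that pulls the membranes together. Munc18 proteins hold and guide syntaxins, tomosyns and amisyn (Stxbp5, Stxbp5l, Stxbp6) compete for the SNARE bundle, synaptotagmins sense calcium at the site of fusion, and synapsins tether the reserve of vesicles. The same protein families also serve endosomes, the Golgi and the endoplasmic reticulum, so that the 50 genes mix neuronal genes with genes that most cells use.

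Sequence from GRCm38 is shown for 3 regions, namely 1 that was called in every BCAS library and no sham library and 1 at each of the 2 loci whose covered length changed, and for 4 promoters that span the range of promoter peaks, from the strongest to none. Each region is the stretch of up to 300 bases around the median summit, on the plus strand, inside an intron of its gene, and each promoter is the stretch of up to 250 bases before the RefSeq start, on the strand of the gene, cut where an annotated untranslated exon begins. Capitals mark the motifs found on either strand. Syt15 (chr14:34226635-34226934) had a peak in 4 BCAS libraries and in 1 sham library, Stx7 (chr10:24164571-24164870) in 4 BCAS libraries and 0 sham libraries, and Syt16 (chr12:74117910-74118209) in 0 BCAS libraries and 3 sham libraries. The capitals are the AP-1 letters in Syt15 and Stx7 and the E-box letters in Syt16.
Syt15 intron: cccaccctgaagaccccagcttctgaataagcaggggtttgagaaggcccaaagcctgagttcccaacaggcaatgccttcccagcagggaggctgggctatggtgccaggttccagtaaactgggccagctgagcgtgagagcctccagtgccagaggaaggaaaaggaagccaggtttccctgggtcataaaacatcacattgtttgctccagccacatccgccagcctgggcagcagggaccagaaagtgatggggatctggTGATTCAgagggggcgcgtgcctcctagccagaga
Stx7 intron: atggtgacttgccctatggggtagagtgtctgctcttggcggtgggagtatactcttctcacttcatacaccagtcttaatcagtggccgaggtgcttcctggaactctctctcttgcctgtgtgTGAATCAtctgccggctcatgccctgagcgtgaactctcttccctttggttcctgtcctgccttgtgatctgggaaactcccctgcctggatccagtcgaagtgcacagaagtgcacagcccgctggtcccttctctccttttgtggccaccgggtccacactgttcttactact
Syt16 intron: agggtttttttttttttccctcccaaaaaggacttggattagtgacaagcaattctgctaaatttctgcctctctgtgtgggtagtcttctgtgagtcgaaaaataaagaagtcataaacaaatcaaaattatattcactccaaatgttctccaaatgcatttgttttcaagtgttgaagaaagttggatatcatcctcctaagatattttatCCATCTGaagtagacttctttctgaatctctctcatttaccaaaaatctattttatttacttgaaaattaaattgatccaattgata
The promoters are those of Stx6 (chr1:155158453-155158702), which held one of the strongest peaks of every library, of Syn1 (chrX:20921005-20921168) and Stx1a (chr5:135023232-135023481), with a peak in all 8 libraries, and of Syt15 (chr14:34219796-34220045), with a promoter peak in 0 of 8 libraries. The capitals mark SP1 in Stx6, and the REST letters (part of the longer REST site) and CRE in Syn1.
Stx6 promoter: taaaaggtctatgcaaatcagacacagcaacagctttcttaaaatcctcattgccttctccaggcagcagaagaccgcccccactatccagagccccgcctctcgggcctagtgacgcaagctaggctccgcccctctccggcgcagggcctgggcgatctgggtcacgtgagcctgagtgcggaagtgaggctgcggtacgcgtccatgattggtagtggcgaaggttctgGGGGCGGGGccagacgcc
Syn1 promoter: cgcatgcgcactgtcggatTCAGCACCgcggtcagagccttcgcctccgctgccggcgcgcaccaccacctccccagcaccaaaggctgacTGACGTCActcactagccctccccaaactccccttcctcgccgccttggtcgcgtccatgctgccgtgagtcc
Stx1a promoter: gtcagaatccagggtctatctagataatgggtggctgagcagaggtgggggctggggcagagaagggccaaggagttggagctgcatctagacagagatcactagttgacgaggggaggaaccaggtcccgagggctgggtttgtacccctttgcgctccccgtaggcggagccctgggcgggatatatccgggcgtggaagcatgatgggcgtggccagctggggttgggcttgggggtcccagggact
Syt15 promoter: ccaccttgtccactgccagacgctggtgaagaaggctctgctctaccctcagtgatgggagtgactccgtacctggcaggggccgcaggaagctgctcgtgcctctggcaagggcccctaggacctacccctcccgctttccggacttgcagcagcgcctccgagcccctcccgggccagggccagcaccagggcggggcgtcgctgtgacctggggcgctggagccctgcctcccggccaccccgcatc

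Across the 627 regions at the 50 loci, motif letters were about as frequent as in all 197916 regions. The AP-1 letters TGANTCA stood within 150 bases of the summit in 103 of 627 regions (16.4%), beside 18.1% of all regions, and the E-box letters CAGATGG in 69 regions, or 11%, beside 11.8%. PU.1 (GAGGAAGT) was in 2.87%, beside 3.61% of all regions, RUNX (TGTGGTTT) in 1.59%, beside 2.42%, and the REST letters (TCAGCACC) in 2.55%, beside 1.80%. CRE (TGACGTCA), EGR1 (GCGTGGGCG), C/EBP (TTGCGCAA) and SP1 (GGGGCGGGG) were found in 4, 1, 0 and 22 of the 627 regions. In that order these were 0.638%, 0.159%, 0% and 3.51%, beside 0.591%, 0.213%, 0.0768% and 2.78% of all regions. The RefSeq table held 50 promoters of 38 of the 50 genes, and 15 of these promoters (30%) had the SP1 letters, beside 11.4% of 32851 promoters of all genes. These promoters had a median GC content of 62.8%, beside 52.7% for all promoters, so that the share of a GC-rich motif differed together with base composition. PU.1, RUNX, C/EBP and EGR1 were in 0 of the 50 promoters, beside 3.20%, 1.78%, 0.183% and 0.612% of all promoters. AP-1, CRE, REST and E-box were in 8%, 4%, 2% and 4%, beside 7.81%, 1.79%, 1.65% and 5.30%. All motifs were searched on both strands, and the letters of none contain those of another. A match is a match of letters only, and says nothing of a factor.

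The 8 peak lists held 107391 to 160720 peaks on 21 chromosomes that covered 44.5 to 66.3 Mb, with BCAS 1 the longest list. Read depth is unknown from the peak lists. For this reason the DNA under peaks at a locus (the gene and 3 kb on each side) was scaled to the mean total of the libraries, 52.9 Mb, and is given below in scaled bp. The tissue label held up against markers: 4 of 6 excitatory neuron markers had a promoter peak in all 8 libraries, and the 3 liver markers had one in 0 libraries. The summed length at the 8 microglia markers was 23.9 to 26.5 kb in BCAS libraries, against 18.8 to 24.0 kb in sham libraries. All 8 microglia markers had a positive log2 fold change, of which Itgam passed the test (limma), with 1092 ± 394 bp in BCAS and 54.8 ± 110 bp in sham (SD, n = 4 each), so that it reached the minimum for a test, a mean of 200 bp over the 8 libraries, through the BCAS libraries alone. At the 4 endothelial markers the sum was 10.7 to 12.3 kb in BCAS libraries, against 6.89 to 9.67 kb in sham libraries. Of the 4, 3 had a positive and 1 (Cldn5) a negative log2 fold change, and 0 passed the test (limma). The longest covered length was that of Flt1, with 5830.5 ± 529 bp in BCAS and 3990 ± 1559 bp in sham (SD, n = 4 each; adjusted p = 0.163, limma). At the 6 excitatory neuron markers the sum was 14.5 to 16.6 kb in BCAS libraries, against 15.9 to 17.7 kb in sham libraries. At the 5 lymphocyte markers the sum was 0.962 to 1.39 kb in BCAS libraries, against 0.449 to 0.577 kb in sham libraries, which did not overlap. Of these, Cd79a had 793 ± 125 bp in BCAS and 523 ± 55.1 bp in sham (adjusted p = 0.136, limma), Cd3d 303 ± 48.1 bp in BCAS and 0 bp in all sham libraries, Cd3e 145 ± 180 bp in BCAS and 0 bp in all sham libraries (SD, n = 4 each), and Ms4a1 0 bp in all 8 libraries. At the 6 border macrophage and monocyte markers the sum was 2.52 to 3.32 kb in BCAS libraries, against 2.27 to 3.06 kb in sham libraries, with Ly6c2 and Ms4a7 at 0 bp. No promoter of these 11 markers had a peak in any of the 8 libraries. The part that these other cell types have in the results below was not tested.

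At the fusion genes, the length of open DNA changed at 2 of 50 loci. Syt15 rose and Syt16 fell in BCAS (limma, Benjamini-Hochberg adjusted over 17035 genes, threshold 0.05), beside 3.16% of all tested genes that rose and 0.376% that fell. With 1 gene in each direction, neither count can be set apart from that background. Syt15 reached the minimum of 200 bp through the BCAS libraries alone, and its call stood without a minimum (adjusted p = 0.00908, limma). At an unadjusted p under 0.05, 2 members were higher, beside 10.6% of all tested genes, and 4 were lower, beside 4.39% (limma). The median log2 fold change was 0.02 over the members, with 26 positive and 24 negative, and 0.0014 over all tested genes. The 8 libraries did not overlap between the groups at 1 locus where BCAS was above (Syt15, beside 6.03% of all tested genes) and at 4 loci where BCAS was below (Snap25, Syt5, Syt16 and Stxbp6, beside 2.47%). Before scaling to the library total, the groups overlapped at each of these last 4 loci. Summed over all 50 loci, the scaled length was 168, 169, 168 and 165 kb in BCAS libraries, against 181, 175, 175 and 172 kb in sham libraries. Sums of unscaled lengths were not compared. All 4 scaled BCAS sums were below all 4 scaled sham sums, also without Syt1, the longest member, where they were 142 to 150.3 kb in BCAS libraries and 150.6 to 157 kb in sham libraries. Without Syt1 and Syt16 the sums overlapped, with 130 to 138 kb in BCAS libraries and 136 to 141 kb in sham libraries. Over all 17035 tested loci, the sums were 39366 ± 677 kb in BCAS libraries and 39122 ± 952 kb in sham libraries (SD, n = 4 each).

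**Figure D1:**
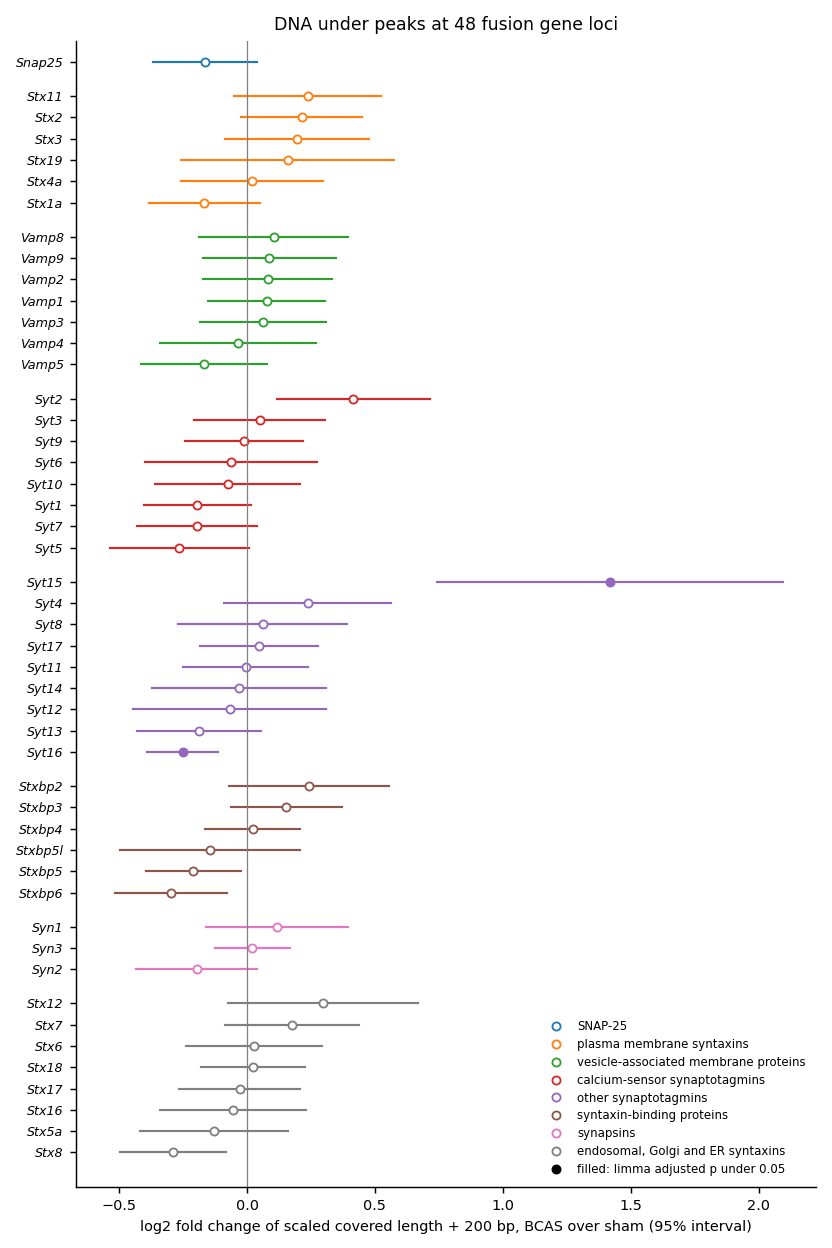
Log2 fold change of covered length, BCAS over sham, at 48 of the 50 loci, grouped by the role of the protein, with lines for the 95% intervals. Filled points passed the test over all genes (Syt15 at 1.42, which reached the minimum of 200 bp through the BCAS libraries alone, and Syt16 at -0.25), and the intervals of most other members include 0.

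Syt15 encodes a synaptotagmin whose C2 domains are not known to bind calcium, and it had the largest log2 fold change of the 50. Its locus (chr14:34219595-34230420, plus strand) held 568, 505, 335 and 362 bp in BCAS libraries, against 0, 0, 198 and 0 bp in sham libraries. Each BCAS library had a peak there and 3 of 4 sham libraries had none, so the groups did not overlap. The log2 fold change on the scale of scaled length plus 200 bp was 1.42 ± 0.32 (SE, adjusted p = 0.0189, limma). The locus had 2 regions, both in introns. The one printed above, 6.77 kb into the gene, was called in all BCAS libraries and in sham 3, and the other (chr14:34223479-34223845), 3.62 kb into the gene, only in BCAS 1 and BCAS 2. The means were 442 ± 112 bp in BCAS and 49.5 ± 99.1 bp in sham (SD, n = 4 each). The call rested on 1 or 2 peaks a library. Without BCAS 2 the adjusted p was 0.0758, without BCAS 1 the mean was under the minimum, and with the read GC class of the library as a covariate the adjusted p was 0.0502 (limma).

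Syt16, another synaptotagmin that is not known to sense calcium, was the member that fell. Its long locus (chr12:73997661-74273267, plus strand) held 12178, 13127, 11814 and 12331 bp in BCAS libraries, against 16047, 14002, 14280 and 14762 bp in sham libraries. The highest BCAS value lay below the lowest sham value. The log2 fold change was -0.25 ± 0.066 (SE, adjusted p = 0.0418, limma), with means of 12362 ± 554 bp in BCAS and 14773 ± 906 bp in sham (SD, n = 4 each). Of its 38 regions 22 were called in all 8 libraries, and the number of peaks was 33, 28, 25 and 26 in BCAS libraries, against 29, 30, 34 and 29 in sham libraries, so the peak counts overlapped. An intronic region 120 kb from the start, printed above, was called in sham 1, sham 2 and sham 3 and in 0 BCAS libraries. The promoter peak of Syt16 stood at the percentiles 83.4, 85, 80.8 and 83.4 in BCAS libraries, against 82.3, 78.3, 89 and 72.2 in sham libraries, which overlapped. The call was lost without any 1 of the 8 libraries, with adjusted p-values of 0.0521 to 0.126 (limma) and log2 fold changes of -0.28 to -0.21, and with most other settings.

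**Figure D2:**
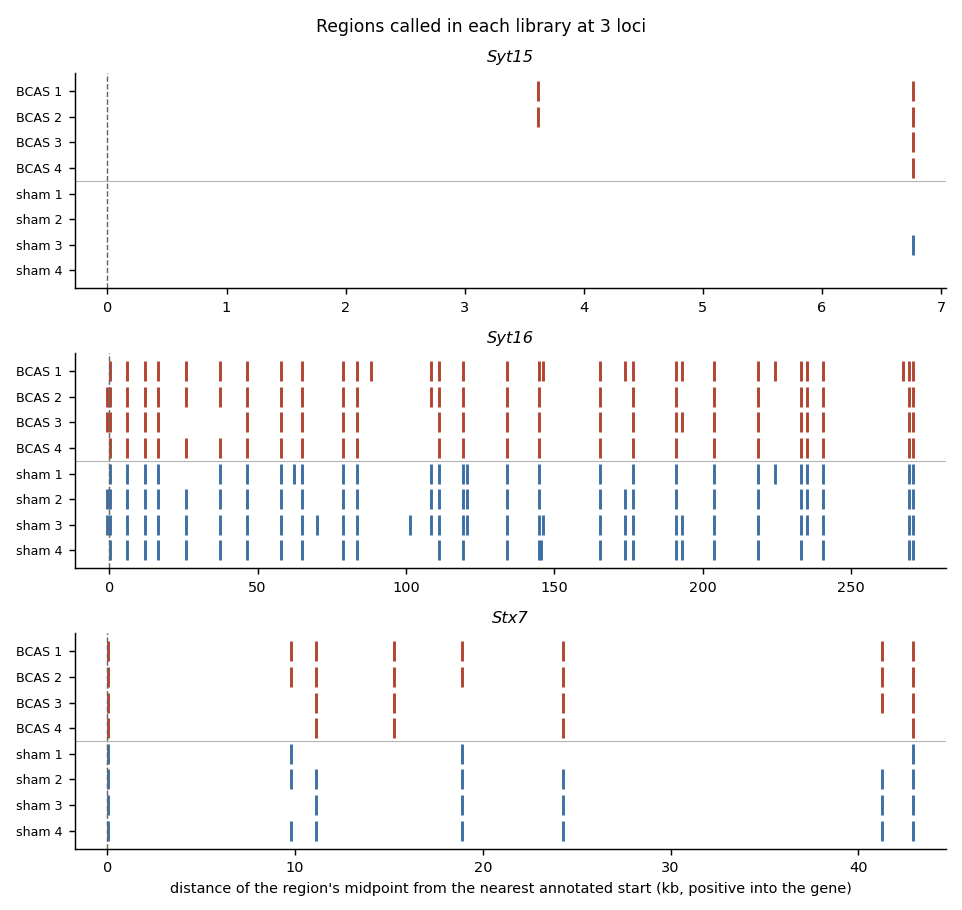
Regions called in each library (ticks, BCAS in red above sham in blue) at Syt15, Syt16 and Stx7, by distance in kb from the nearest annotated start. At Syt15 the region 6.77 kb into the gene is present in 4 BCAS libraries and in sham 3, at Stx7 1 intronic region is present in the BCAS libraries alone, and at Syt16 most regions are shared.

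Of the core machinery, none of Snap25, Stx1a, Vamp2, Syt1 and the 3 synapsins passed the test of covered length in either direction, at an adjusted or an unadjusted p (limma). Snap25 and Stx1a, SNAREs of the plasma membrane, had lower means in BCAS. Snap25 (chr2:136713453-136782428), the SNAP-25 gene, had 2841, 2789, 2848 and 2906 bp in BCAS libraries, against 3039, 3092, 3179 and 3559 bp in sham libraries. All 4 BCAS libraries lay below all 4 sham libraries, and the BCAS values were close together (2846 ± 48.1 bp in BCAS and 3217 ± 235 bp in sham; SD, n = 4 each). The log2 fold change was -0.16 ± 0.097 (SE, adjusted p = 0.479, limma). Of the 12 regions at Snap25, 6 were called in all 8 libraries, among them 2 at its promoters.

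Stx1a (chr5:135023482-135051100), a neuronal plasma membrane syntaxin, held 2281, 2553, 2544 and 2346 bp in BCAS libraries, against 2825, 2817, 2455 and 2933 bp in sham libraries. Sham 3 lay among the BCAS values, and the log2 fold change was -0.17 ± 0.10 (SE, adjusted p = 0.505, limma). The vesicle SNARE Vamp2 (chr11:69088490-69092384) had 1527, 2012, 1863 and 1725 bp in BCAS libraries, against 1876, 1748, 1501 and 1568 bp in sham libraries. The groups overlapped, with a log2 fold change of 0.08 ± 0.12 (SE, adjusted p = 0.871, limma), and the flank of this short gene is shared with the clock gene Per1. In the gene body alone the log2 fold change of Vamp2 was 0.61 (unadjusted p = 0.0354, adjusted p = 0.276) and in promoter windows alone 0.67 (unadjusted p = 0.0183, adjusted p = 0.456, limma). Of the 7 plasma membrane syntaxins 0 rose and 0 fell (limma, also at an unadjusted p). Besides Stx1a, those reported here had log2 fold changes of 0.24 for Stx11, a syntaxin of cytotoxic lymphocytes and macrophages, 0.21 for Stx2, 0.20 for Stx3, 0.16 for Stx19 and 0.02 for Stx4a. The 95% interval of each included 0. The value of Stx4a turned negative with lists of equal length. Among the 7 VAMP genes 0 rose and 0 fell (also at an unadjusted p, limma), from -0.17 for Vamp5 to 0.10 for Vamp8, an endosomal VAMP.

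**Figure D3:**
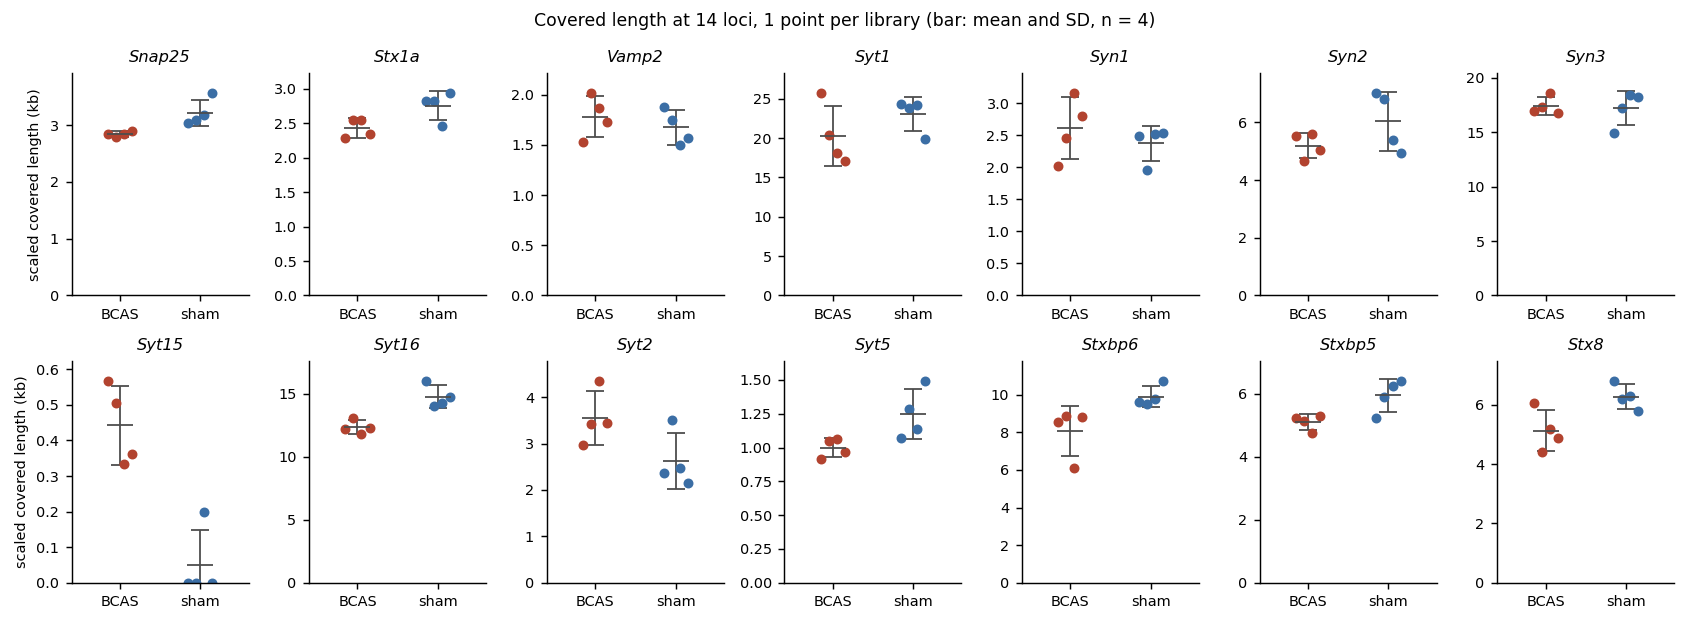
Scaled covered length in kb at 14 loci, 1 point per library, with the mean and SD of 4 libraries, BCAS left of sham. At Syt15, Snap25, Syt16, Syt5 and Stxbp6 the groups do not overlap, and at Syt1 BCAS 1 lies above all other libraries.

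Of the 8 synaptotagmins that act as calcium sensors, 0 rose and 0 fell (limma), with 1 higher at an unadjusted p. Syt1 (chr10:108497650-109010982), the sensor of fast release in the forebrain, spans 513 kb and held 101 regions, the most of any member, of which 21 were called in all 8 libraries. Its covered length was 25680, 20336, 18066 and 17093 bp in BCAS libraries, against 24345, 23820, 24168 and 19840 bp in sham libraries. BCAS 1 was the highest of all 8 libraries and the other 3 BCAS libraries included the 2 lowest, so the groups overlapped. The log2 fold change was -0.19 ± 0.10 (SE, adjusted p = 0.387, limma), and -0.31 without BCAS 1 (adjusted p = 0.0656, limma). Without BCAS 4 it was -0.12 (adjusted p = 0.696), and with the read GC class of the library as a covariate -0.0067 (adjusted p = 0.971, limma). BCAS 1 also had the most peaks at Syt1, 88, against 46 to 59 in the other BCAS libraries and 50 to 75 in sham libraries.

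Syt2 (chr1:134646677-134762593), the fast sensor of hindbrain synapses and of parvalbumin interneurons, had the second largest positive value. It held 2963, 3418, 4354 and 3446 bp in BCAS libraries, against 2372, 3514, 2467 and 2157 bp in sham libraries. Sham 2 alone lay within the BCAS range, and the log2 fold change was 0.42 ± 0.14 (SE, adjusted p = 0.128, limma). Without sham 2 it was 0.55 with an adjusted p of 0.0274, and without any 1 of the other libraries it was 0.32 (without BCAS 3) to 0.49 (without BCAS 1), with adjusted p-values of 0.118 to 0.366 (limma). In promoter windows alone it was 0.10. One intronic region 5.15 kb into the gene was called in 4 BCAS libraries and 2 sham libraries. Syt5 (chr7:4539765-4547541), whose 1 region lies at its promoter, had 913, 1047, 1067 and 968 bp in BCAS libraries, against 1072, 1284, 1139 and 1494 bp in sham libraries. The groups did not overlap, by a margin of 1067 bp for the highest BCAS and 1072 bp for the lowest sham library, and the log2 fold change was -0.27 ± 0.13 (SE, adjusted p = 0.351, limma). The flanked locus of Ptprh overlaps that of Syt5. With DNA shared with other gene loci left out, Syt5 was not tested. The remaining sensors ranged from -0.20 for Syt7, the sensor of slow and asynchronous release, through -0.08 for Syt10, -0.06 for Syt6 and -0.01 for Syt9 to 0.05 for Syt3.

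Among the other 9 synaptotagmins, Syt4, a synaptotagmin whose gene is induced by neuronal activity, held 1331, 2207, 2221 and 1401 bp in BCAS libraries, against 1451, 1622, 1284 and 1458 bp in sham libraries. BCAS 2 and BCAS 3 lay above all sham libraries and BCAS 1 and BCAS 4 among them, with a log2 fold change of 0.24 ± 0.15 (SE, adjusted p = 0.544, limma). With Syt15 and Syt16 aside, the rest ranged from -0.19 for Syt13 to 0.24 for Syt4, with -0.07 for Syt12, -0.03 for Syt14, -0.01 for Syt11, 0.05 for Syt17 and 0.06 for Syt8.

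The 7 syntaxin-binding genes had 0 calls in either direction (limma), with 2 lower and 0 higher at an unadjusted p. The inhibitors of SNARE assembly had the lowest log2 fold changes of the 7, and none passed the test. Stxbp6 (chr12:44852484-45074709), the amisyn gene, held 8569, 8861, 6103 and 8828 bp in BCAS libraries, against 9613, 9491, 9757 and 10741 bp in sham libraries. All BCAS libraries lay below all sham libraries and BCAS 3 was far below the other 3, with a log2 fold change of -0.30 ± 0.10 (SE, adjusted p = 0.138, limma). Without BCAS 3 it was -0.17. For Stxbp5 (chr10:9755547-9901079), the tomosyn gene, the lengths were 5225, 5121, 4760 and 5303 bp in BCAS libraries, against 5237, 5894, 6235 and 6412 bp in sham libraries. Only sham 1 lay within the BCAS range, and the log2 fold change was -0.21 ± 0.089 (SE, adjusted p = 0.257, limma). At Stxbp5, 2 intronic regions were called in 1 BCAS library and 4 sham libraries each (chr10:9828579-9828974 and chr10:9834274-9834602). Stxbp5l, its relative, had a log2 fold change of -0.14. Stxbp2 (chr8:3630955-3643644), the Munc18 protein of granule release in blood cells, had 811, 1024, 1281 and 1313 bp in BCAS libraries, against 795, 917, 1020 and 846 bp in sham libraries. BCAS 2, BCAS 3 and BCAS 4 were above all sham libraries and BCAS 1 among them, with a log2 fold change of 0.24 ± 0.15 (SE, adjusted p = 0.505, limma). The flank held a region 15.05 kb from the start (chr8:3645836-3646169) that was called in 4 BCAS libraries and 1 sham library, and in the gene body alone the log2 fold change was -0.08. Stxbp3 and Stxbp4 had 0.15 and 0.02.

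The 3 synapsins had 0 calls (limma, also at an unadjusted p). Syn1 (chrX:20860511-20921004) held 2022, 2450, 3150 and 2797 bp in BCAS libraries, against 2480, 1958, 2511 and 2528 bp in sham libraries. The groups overlapped and the log2 fold change was 0.12 ± 0.13 (SE, adjusted p = 0.801, limma). The flanked locus of Cfp, the properdin gene of the complement system, overlaps that of Syn1. Cfp rose, with 542 ± 135 bp in BCAS and 65.6 ± 131 bp in sham (SD, n = 4 each; log2 fold change 1.57 ± 0.32 SE, adjusted p = 0.0098, limma). Cfp too reached the minimum of 200 bp through the BCAS libraries alone. The log2 fold change of Syn1 was -0.04 in the gene body alone and 0.33 in promoter windows alone (unadjusted p = 0.0337, adjusted p = 0.622, limma). Syn2 (chr6:115134902-115282006) had 5525, 4644, 5588 and 5030 bp in BCAS libraries, against 7002, 6803, 5397 and 4935 bp in sham libraries. Sham 1 and sham 2 were above all other libraries and the other 2 sham libraries lay within the BCAS range, with a log2 fold change of -0.20 ± 0.11 (SE, adjusted p = 0.451, limma). At Syn3 (chr10:86055125-86498896) the lengths were 16958, 17286, 18553 and 16763 bp in BCAS libraries, against 14938, 17255, 18373 and 18229 bp in sham libraries, which overlapped, with a log2 fold change of 0.02 ± 0.069 (SE, adjusted p = 0.952, limma). Each synapsin gene contains a gene of a tissue inhibitor of metalloproteinases on the other strand (Timp1, Timp4 and Timp3), and ATAC peaks have no strand, so the DNA of the nested gene counts for both. The log2 fold changes of these nested genes were -0.08 for Timp1, 0.21 for Timp4 and 0.01 for Timp3, and 0 of the 3 passed the test (limma). With DNA shared with other gene loci left out, the log2 fold change of Syn2 was -0.37 (unadjusted p = 0.00656, adjusted p = 0.104, limma), that of Syn1 0.16 and that of Syn3 0.02.

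Of the 8 syntaxins of endosomes, the Golgi and the endoplasmic reticulum 0 rose and 0 fell (limma), with 1 lower at an unadjusted p. That was Stx8 (chr11:67966193-68207148), a late endosomal syntaxin, which held 6044, 4394, 5172 and 4874 bp in BCAS libraries, against 6810, 6204, 6295 and 5794 bp in sham libraries. BCAS 1 alone lay within the sham range, with a log2 fold change of -0.29 ± 0.099 (SE, adjusted p = 0.131, limma). At Stx8, 2 intronic regions were called in BCAS 1 and 4 sham libraries, and 1 (chr11:68145380-68145771) in 3 BCAS libraries and 1 sham library. Stx12 (chr4:132853501-132884509), a syntaxin of recycling endosomes, had 636, 924, 1376 and 1236 bp in BCAS libraries, against 847, 798, 685 and 806 bp in sham libraries. BCAS 2, BCAS 3 and BCAS 4 were above all sham libraries and BCAS 1 below them, with a log2 fold change of 0.30 ± 0.18 (SE, adjusted p = 0.479, limma). The others ranged from -0.13 for Stx5a, the Golgi syntaxin, through -0.05 for Stx16, -0.03 for Stx17, 0.02 for Stx18 and 0.03 for Stx6 to 0.18 for Stx7.

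Peaks that overlapped between libraries by 1 bp or more were merged into regions, and the presence of a peak was counted in each library. At the 50 loci, 241 of 627 regions were called in all 8 libraries (38.4%, beside 36.2% of all 197916 regions). Regions called in 4 BCAS and 0 sham libraries numbered 2 (0.319%, beside 1.62% of all regions), and regions called in 0 BCAS and 4 sham libraries numbered 0 (beside 0.0945%). One of the 2 was the intronic region of Stx7 (chr10:24164262-24164912), a late endosomal syntaxin. With 3 or 4 BCAS libraries and 0 sham libraries there were 11 regions (1.75%, beside 3.28%), and with 0 BCAS libraries and 3 or 4 sham libraries 4 (0.638%, beside 0.592%). These 4 lay in introns of Syt13, Syn3, Syt16 and Syt7. No region was tested on its own, because with 4 against 4 libraries the smallest two-sided exact p is 0.0286. The count of 2 was 7 when BCAS 4 or sham 3 was left out and 4 without BCAS 2 or BCAS 3, and that of 0 was 6 without BCAS 1. With 1 library left out fewer libraries have to match, which by itself favours higher counts. The share of all regions under that looser rule is not given here.

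**Figure D4:**
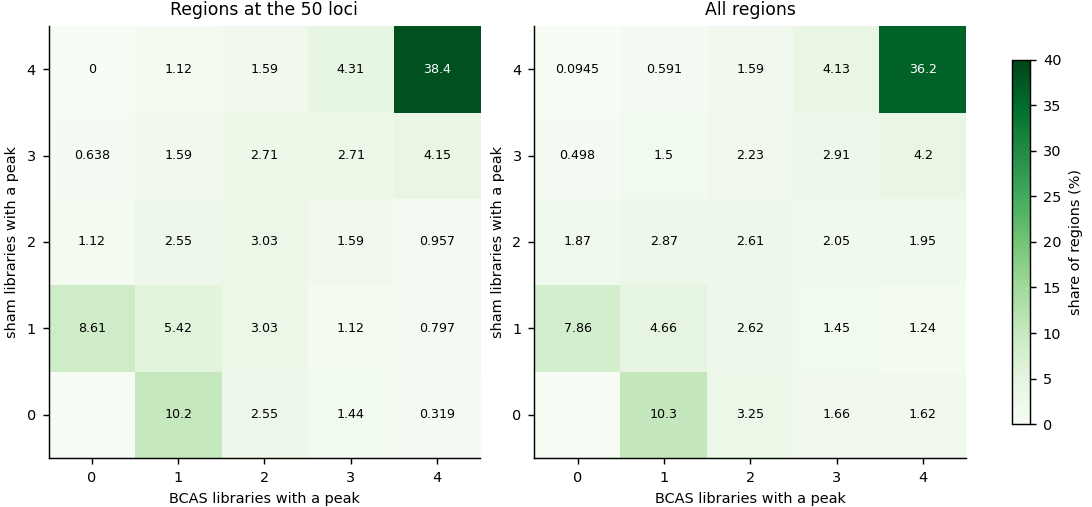
Share of regions in % by the number of BCAS libraries (x axis) and of sham libraries (y axis) with a peak, for the 627 regions at the 50 loci on the left and for all 197916 regions on the right. The upper right corner, all 8 libraries, holds 38.4% and 36.2%, and the lower right corner, 4 BCAS and 0 sham libraries, 0.319% and 1.62%.

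By place, 78.4% of the pairs of a member and a region were intronic, beside 71.9% for all tested genes, and 10.02% lay within 1 kb of an annotated start, beside 14.3%. The members are longer genes, with a median of 42.6 kb, beside 23.8 kb over all tested genes. Their density of regions was 1.54 per 10 kb of locus, beside 1.34. Per length, Vamp2 was the densest member with 4.04 regions per 10 kb and Stxbp5l the sparsest with 0.471. Promoter regions were the most shared: 87.3% of those at the members were called in all 8 libraries, against 32.7% of the intronic ones. Over all tested genes the same contrast was seen, with 77.5% of promoter regions and 31.9% of intronic ones. The median GC content was 47.8% in member regions with more BCAS than sham libraries, 49.3% in those with as many, and 45.8% in those with fewer BCAS libraries, beside 48.3%, 49% and 45% for all regions.

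The promoters of the fusion genes were open in nearly every library. A peak within 500 bp of an annotated start was called in all 8 libraries at 45 of 50 genes (90%, beside 77.4% of all tested genes). The other 5 were Vamp2, with a promoter peak in all libraries but sham 4, Stx19 in 3, Syt6 and Syt8 in 1 each, and Syt15 in 0. The fold enrichment of a peak was made within its library, so each gene's strongest promoter peak was given as its percentile among all peaks of that library. Among the members the median was 87.5, beside 88.6 for all ranked genes, with Stx6, a syntaxin of the trans-Golgi network, highest (99.7 to 100) and Syt12 lowest (27.7 to 56.3).

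By this rank 0 of 45 members rose and 0 fell (limma, adjusted over 13186 genes), beside 0.137% and 0.0228% of all ranked genes. At an unadjusted p under 0.05, 5 members were higher in BCAS (11.1%, beside 11.4% of all ranked genes) and 0 lower. The 5, named after their values were seen, were Snap25, Stx11, Syt4, Syt14 and Syt17. The median difference was 2.12 points over the members and 1.19 points over all ranked genes, with 36 of 45 members and 72.0% of all ranked genes positive. Snap25 was the 1 member whose groups did not overlap with BCAS above (beside 7.52% of all ranked genes), and 0 did with BCAS below (beside 1.27%). Its percentiles were 54.1, 58.4, 63.4 and 52.7 in BCAS libraries, against 48.8, 51.1, 48.9 and 42.1 in sham libraries. The difference was 9.41 ± 2.89 points (SE, adjusted p = 0.24, limma). So at Snap25 the promoter peak ranked higher in all BCAS libraries while the scaled covered length of the whole locus was lower in all of them, and neither difference passed the test over all genes.

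Syt17, a C2 domain protein without a membrane span, had the largest difference, 24.2 ± 8.33 points (SE, adjusted p = 0.284, limma). Its percentiles were 74.4, 59.8, 65 and 67.6 in BCAS libraries, against 63.6, 35.9, 47.1 and 23.4 in sham libraries. Sham 1 lay among the BCAS libraries and sham 4 was lowest. Stx11 had 88.2, 84.8, 84.1 and 92.2 in BCAS libraries, against 74.1, 64.7, 84.7 and 76.4 in sham libraries, with a difference of 12.3 ± 4.17 points (SE, adjusted p = 0.277, limma), and sham 3 alone reached the BCAS range. In the core machinery, Stx1a had 92.6, 85, 84.2 and 88.5 in BCAS libraries, against 83, 86.5, 90.6 and 89.4 in sham libraries, and Syt1 86.4, 92.5, 91.7 and 90.7 in BCAS libraries, against 82, 89.3, 89.1 and 91.1 in sham libraries, which overlapped in both. The lowest difference was that of Stxbp5, -7.22 ± 6.99 points (SE, adjusted p = 0.719, limma), with 64.6, 49.7, 51.7 and 48.3 in BCAS libraries, against 80.4, 52.2, 56.8 and 53.8 in sham libraries, where sham 1 stood far above the other libraries.

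**Figure D5:**
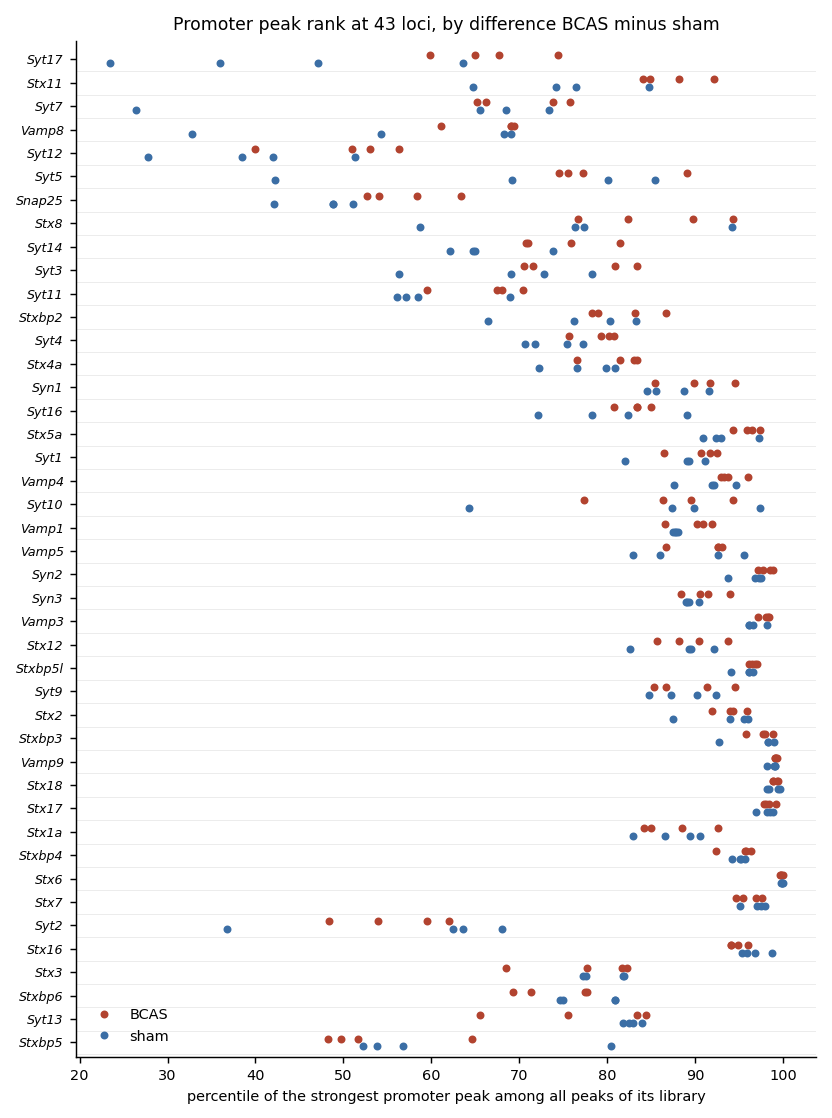
Percentile of the strongest promoter peak among all peaks of its library (x axis) for 43 of the 45 members with a promoter peak in all 8 libraries, ordered by the difference of BCAS (red, upper row of each gene) minus sham (blue). Snap25 is the 1 gene with all BCAS points above all sham points, and for Stx6, Stx18 and Vamp9 all points lie close to 100.

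Other genes of transmitter release were described in the same fit. Of 59 genes of the release machinery (active zone, priming, complexin, NSF and SNAP, vesicle and transporter genes), 57 were tested. Among them 0 rose and 3 fell (limma), beside 3.16% and 0.376% of all tested genes. At an unadjusted p under 0.05, 6 were higher and 10 lower (limma), beside 10.6% and 4.39% of all tested genes, and the groups did not overlap at 3 with BCAS above and at 6 with BCAS below, beside 6.03% and 2.47%. Their median log2 fold change was -0.06, with 22 positive and 35 negative, beside 0.0014 over all tested genes. Rims1, an active zone scaffold, had 10912 ± 718 bp in BCAS and 13470 ± 921 bp in sham (SD, n = 4 each; log2 fold change -0.30, adjusted p = 0.0289, limma). Nsf, the ATPase that takes SNARE bundles apart after fusion, had 3131 ± 138 bp in BCAS and 4129 ± 176 bp in sham (SD, n = 4 each; log2 fold change -0.38, adjusted p = 0.0282, limma). Rab3c, a vesicle GTPase, had 7438 ± 594 bp in BCAS and 9726 ± 747 bp in sham (SD, n = 4 each; log2 fold change -0.38, adjusted p = 0.0151, limma). Whether these 3 calls held in the alternative fits was not examined. Over all genes, 1 to 160 fell in those fits, against 64 in the main fit. Of 13 other SNARE genes 0 rose and 0 fell (limma, also at an unadjusted p), with a median of -0.05.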

How the data were processed

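ATAC-seq was measured in cortex of 4 BCAS and 4 sham mice, grouped by the treatment in the labels. Per the labels and the methods of the study, the authors' reads went through Trim Galore, Bowtie2 2.3.4.3 (genome mm10) and SAMtools 1.9, and MACS2 called the peaks of each library alone. Its options, and whether reads were shifted for Tn5, are not stated in the labels or methods read here. The deposited peak lists give positions, the authors' integer score, the fold enrichment as a ratio over local background, -log10 p-values and q-values, and the summit offset. The lowest deposited -log10 q was 1.31 and the shortest peak 200 bp. No read counts were used, so a test of counts such as the DiffBind comparison of the study was not made.

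From these lists, the bp under peaks at each locus (GENCODE M21, gene body and 3 kb on each side) were scaled to the mean total, and taken as log2 after a pseudocount of 200 bp. Genes whose mean over the 8 libraries reached 200 bp (17035 on 21 chromosomes) were fitted with limma 3.58.1 in R 4.3.3 with a trend of the variance, and p-values were adjusted over all of them by Benjamini and Hochberg at a threshold of 0.05. Promoter peaks were fitted as percentiles, without a trend, over 13186 genes with a peak in all 8 libraries. Peaks were read with Python 3.11.15, numpy 2.4.6 and pandas 2.3.3, and drawn with matplotlib 3.10.9. The fits were tested on simulated data. P-values set the group difference against the spread between the mice of 1 experiment. That spread was moderated by limma toward that of the other fitted genes. Peaks and reference had the same build, since 0 of 1028949 peaks ended past a chromosome of GRCm38. Members with per-library values were those that passed a test or did not overlap between the groups, the 5 highest and 5 lowest log2 fold changes and the core machinery. The members and lists were chosen with earlier results of these data known. Alternatives were the peak threshold, list length, scaling, pseudocount, minimum, window, shared DNA, covariates, replicate block, variance model, ranking and each library left out. Vamp7 was not analysed here, and 12 members without an entry in the promoter table (among them Snap25, Syn3, Syt4, Syt5, Syt7, Syt12, Syt13, Syt17, Vamp2 and Vamp3) had no promoter searched. Results of 2 members are not reported here, although the counts over all 50 include them.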

Additional observations from a re-analysis of the deposited data

Results flagged for a closer look

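In 5 of 72 groups of 4 values of the named members, 1 library stood far from the other 3 by Dixon's ratio, a check that chance passes in about 1 of 20 groups, so that the number was near what chance gives. Stxbp6 had 6103 bp in BCAS 3, against 8569 to 8861 bp in the other BCAS libraries. Syt1 had 19840 bp in sham 4, against 23820 to 24345 bp in the other sham libraries. Syn1 had 1958 bp in sham 2, against 2480 to 2528 bp in the other sham libraries. Syt15 had 198 bp in sham 3 and 0 bp in the other sham libraries, where the 3 zeros fix the ratio at 1. For the promoter peak of Stxbp5, sham 1 stood at the percentile 80.4, against 52.2 to 56.8 in the other sham libraries.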

How the results depend on the processing

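The count of 1 member that rose became 0 without scaling, with a pseudocount of 50 bp, in promoter windows only and in the fit that took up the GC class of the reads, and 0 to 2 with 1 library left out (0 without BCAS 1 or BCAS 2, 2 with Syt2 added without sham 2). The count of 1 that fell became 0 with a -log10 q of at least 5, equal list lengths, no scaling, scaling to the median ratio, a pseudocount of 50 bp, promoter windows only, either covariate and no trend of the variance, and was 0 in all 8 fits without 1 library. Syt15 kept its direction wherever it was tested, with log2 fold changes of 0.46 to 2.69. With the replicate number as a block, the counts were 2 that rose (Syt15, Syt2) and 2 that fell (Syt16, Stxbp6). Whether the numbers pair the mice cannot be told from these data. The correlations of same-numbered libraries were -0.16, -0.011, -0.097 and 0.14, and number 4 alone matched its own number best. Regions in 4 BCAS and 0 sham libraries numbered 2 to 7 with 1 library left out and those in 0 BCAS and 4 sham libraries 0 to 6, and 3 with equal list lengths. Leaving 1 library out loosens the rule for these regions, which by itself favours higher counts. The counts of members called by promoter rank were 0 in every setting run. Over all genes, 538 rose and 64 fell, and 149 to 778 rose and 1 to 160 fell in the alternatives. Without scaling, 222 rose and 1 fell. Fewer genes were thus called in either direction than with scaling, and rises made up a larger part of the called genes. Of 415 values for named genes and counts, 364 kept their direction and side of the threshold, 21 lost a call, 3 gained one and 27 moved. The causes were not tested. Peak lists without read counts limit what can be seen: a peak just under the authors' threshold counts as 0 bp.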
